A study of Rattus norvegicus with 6 samples.

Results

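The cyclic nucleotide phosphodiesterases described here are the rat genes Pde2a, Pde3a, Pde3b, Pde4a, Pde4b, Pde4d, Pde5a, Pde7a, Pde8a and Pde10a. Their members were all rows of the deposited mRNA table whose RefSeq transcript belongs to 1 of these 10 genes, with each transcript kept apart. The rule found 15 of the 20734 rows. Pde4d had 5 rows, Pde2a had 3, and Pde3a, Pde3b, Pde4a, Pde5a, Pde7a, Pde8a and Pde10a had 1 each. No row was named Pde4b, which was therefore not analysed here. All 15 rows were matched to an array probe, and none was lost to the filter on dim probes.

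RNA came from ventricular myocytes of Sprague-Dawley rats aged 1 to 3 days, which the labels call hypertrophic when induced by isoproterenol. The 3 isoproterenol cultures had received the beta-adrenergic agonist at 10 µM for 24 h, and the 3 control cultures were untreated. Both groups had been freed of most fibroblasts by letting these attach for 1.5 h, and both were kept without serum before the experiment. The labels also mention passages and the series text transfection, which do not match primary cells given a drug. No label ties a replicate to a litter or a day of culture. The p-values therefore describe only how far these samples spread, which may be technical.

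Phosphodiesterases end the cAMP and cGMP signal by hydrolysing these second messengers to inactive monophosphates. In cardiomyocytes beta-adrenergic agonists raise cAMP, and several phosphodiesterase families, held near membranes, the sarcoplasmic reticulum and other sites, keep that cAMP local. The families differ in substrate and control: Pde4, Pde7 and Pde8 enzymes act on cAMP, Pde5 on cGMP, Pde2, Pde3 and Pde10 on both, with Pde2 stimulated and Pde3 inhibited by cGMP.

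Each value below is a level, log2 of the array signal minus the 75th percentile of that array, and each change is the isoproterenol mean minus the control mean of these levels. The arrays fell into 2 groups by the scan time in their file headers, called slides here. Isoproterenol replicates 2 and 3 were on slide 2, where 61.3% and 70.9% of mRNA rows were well above background and the median negative-control signal was 87 and 84 scanner units. Isoproterenol replicate 1 and the 3 controls were on slide 1, with 97.7% to 99.8% of rows well above background and negative-control medians of 27 to 30. Slide and treatment therefore partly coincide, and slide 2 held no control. A comparison within slide 1 sets 1 isoproterenol array against 3 controls, so its p rests on the spread of the controls alone and assumes the same spread for isoproterenol. With slide as a block the change is that of slide 1, and the spread also comes from the pair of arrays on slide 2.

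Of the 15 phosphodiesterase rows, 1 passed the test between isoproterenol and control, that of Pde7a, which was higher with isoproterenol. Over all 20646 rows tested 15.9% passed, 9.96% higher and 5.94% lower, so the members' 1 of 15 was not above the background. The 14 other rows had adjusted p-values of 0.104 to 0.705 (limma). The median change over the 15 rows was −0.44, with 5 above 0 and 10 below, against a median of 0.06 over all rows. Rows dim with isoproterenol lay lower in general, which follows in part from choosing them by their isoproterenol signal. Among all rows well above background on the 3 controls, the median was −0.29 with 1 such isoproterenol array, −0.14 with 2 and 0.20 with 3. The members' 5, 4 and 6 rows of these kinds had medians of −0.44, −0.47 and −0.13. The members' lower side was not stable. Within slide 1, 11 of the 15 rows lay above 0 with a median of 0.13, against 0.11 over all rows. With the normexp background correction 11 lay above 0 with a median of 0.23. Under the other scalings the median over all rows moved as well, to −0.18 with the percentile taken over probes detected on all arrays and to 0.37 with normexp. With slide as a block 0 members passed (6.99% of all rows) and within slide 1 0 passed (5.23%). In the block fit 2 of the 15 had an unadjusted p under 0.05, against 5340 of all 20646 rows (limma). These 2 were thus not above the background. With quantile normalization (13.2% of all rows), normexp (13.9%), the authors' deposited values (14.3%) or the percentile over detected probes (16.4%), 1 member passed. No member passed without control replicate 1, 2 or 3, where 7.19%, 2.53% and 1.86% of all rows passed. None passed without isoproterenol replicate 2 or 3 either, where 6.30% and 4.16% of all rows passed. Without isoproterenol replicate 1 the groups lie on different slides. There 11 of 15 members passed (3 higher, 8 lower), and 51.7% of all rows.

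**Figure D1:**
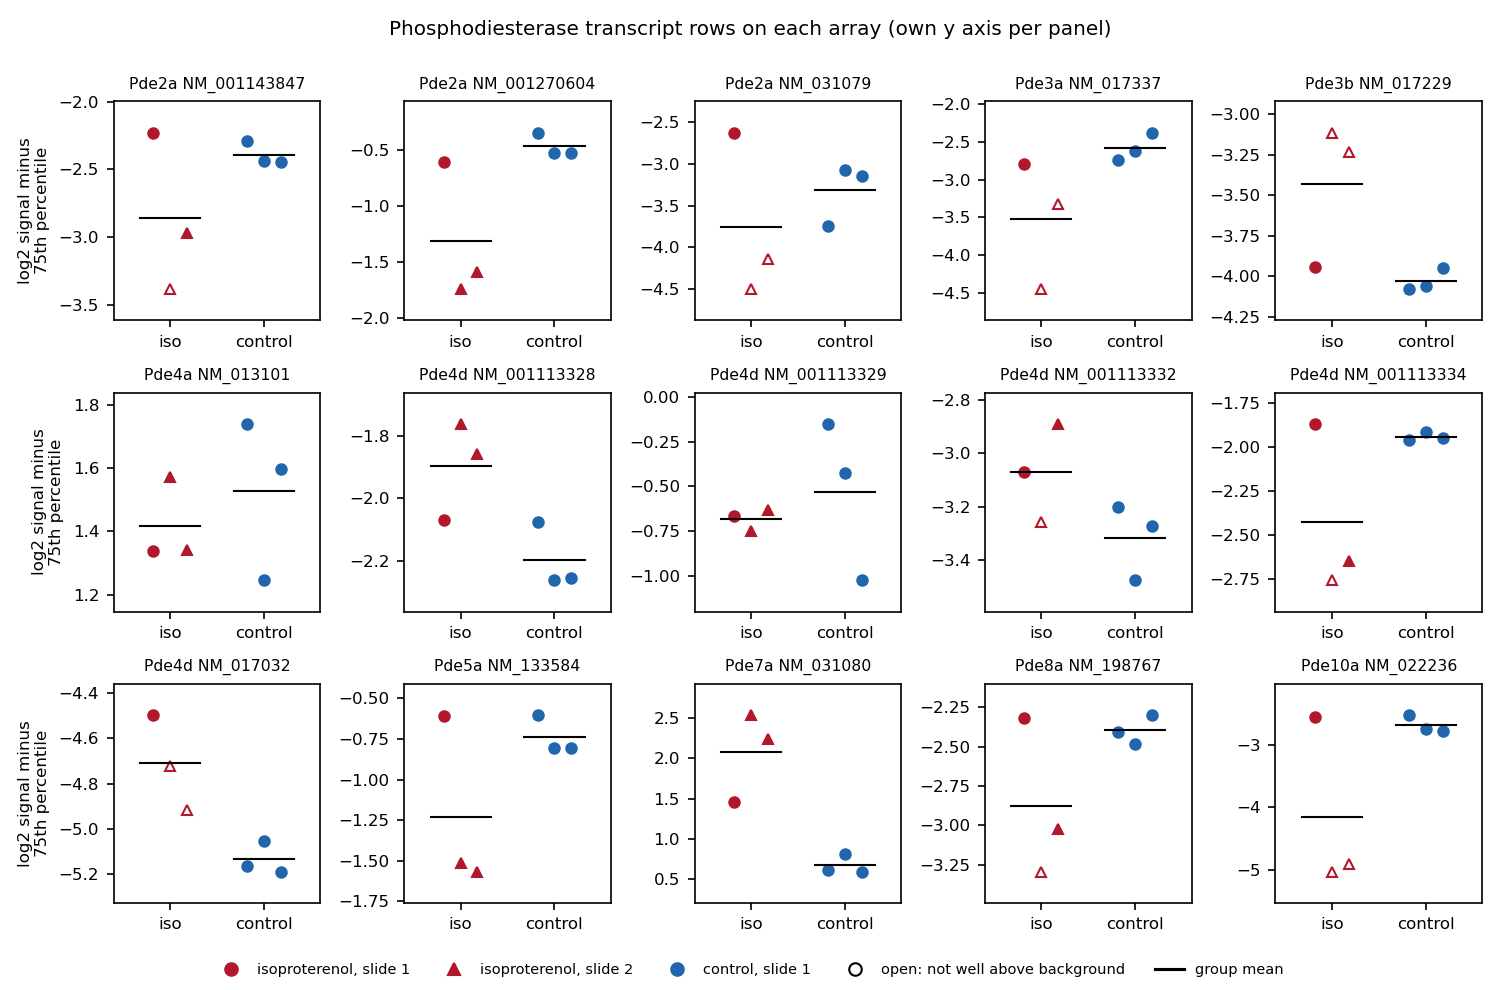
Level (log2 signal minus the array's 75th percentile) of each of the 15 phosphodiesterase rows, one panel each with its own y axis; isoproterenol (red) stands left of control (blue), circles are slide 1, triangles slide 2, open symbols are not well above background, and lines are group means of 3 arrays. In the Pde7a panel the 3 isoproterenol points (1.45 to 2.54) lie above the 3 controls (0.59 to 0.81), while in the Pde10a panel the isoproterenol array of slide 1 lies among the controls.

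Among the cAMP-specific enzymes, Pde7a (NM_031080), a high-affinity cAMP phosphodiesterase that rolipram does not inhibit, had levels of 1.45, 2.54 and 2.24 in isoproterenol replicates 1 to 3, against 0.61, 0.81 and 0.59 in control replicates 1 to 3. All 3 isoproterenol arrays lay above all 3 controls, and the lowest of them was the array on the same slide as the controls. In the unscaled signal the groups did not overlap either, with 1642, 1203 and 1174 scanner units with isoproterenol, against 834, 1023 and 833 in controls. There, however, isoproterenol replicate 1 was the highest array, not the lowest of its group. The higher levels of replicates 2 and 3 thus depend on the scaling, with a 75th percentile of 198 and 240 scanner units, against 514 to 562 on slide 1. The mean level was 2.08 ± 0.56 with isoproterenol and 0.67 ± 0.12 in controls (SD, n = 3 each). Pde7a thus rose by 1.41 ± 0.29 (SE), or 2.65-fold, with a 95% interval of 0.71 to 2.10 and an adjusted p of 0.0239 by limma. Its probe was well above background on all 6 arrays.

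Slide and culture cannot be told apart in the size of the Pde7a change, since slide 1 held a single isoproterenol array. Within slide 1 it was 0.78 ± 0.17 with an adjusted p of 0.0694, and with slide as a block it was also 0.78, with an adjusted p of 0.0742, so that the call was lost in both. With other scalings or background corrections it was 1.17 to 1.29 and passed each time. Without any 1 control or without isoproterenol replicate 2 or 3 the change was 1.17 to 1.48 with adjusted p-values of 0.0651 to 0.105, and without isoproterenol replicate 1 it was 1.72 with an adjusted p of 0.00126. Over the 15 alternatives Pde7a was higher in 15 and passed in 8, of which the one without a filter repeats the reported fit because the filter removed no row.

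**Figure D2:**
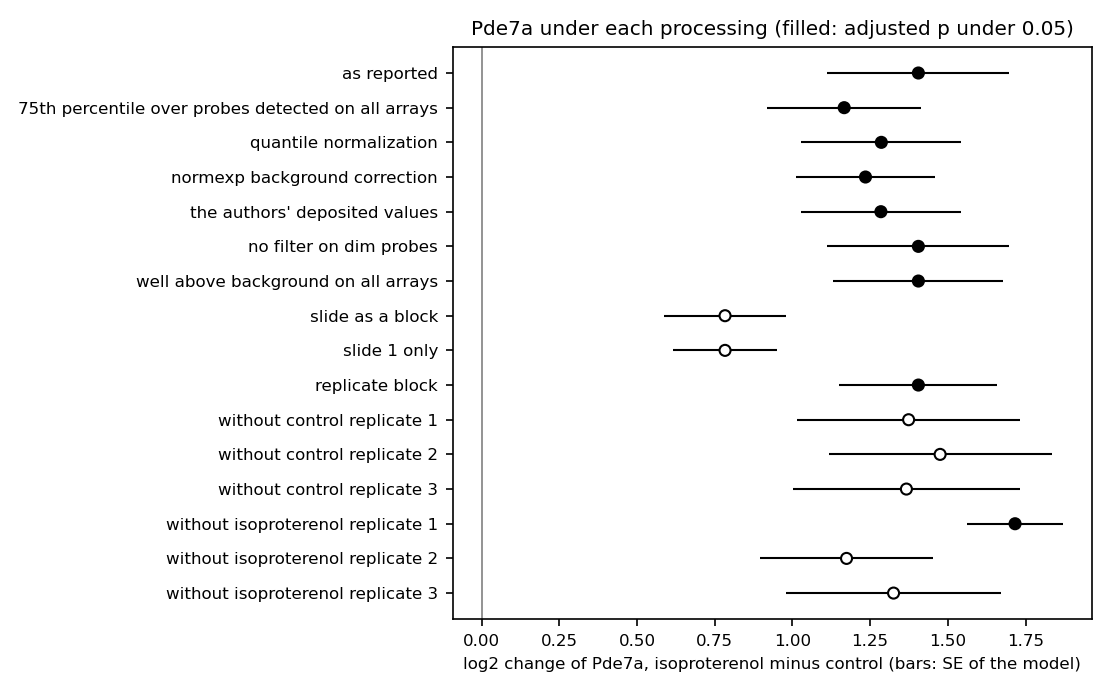
Change of Pde7a (x axis, log2, isoproterenol minus control; bars are the model's SE) as reported and under 15 alternatives (rows), filled where the adjusted p was under 0.05. All points lie right of 0, the lowest at 0.78 for both slide settings.

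The rows whose pattern over the 6 arrays was most like that of Pde7a were those of Tmem138 and Rpl22l1 (Pearson r = 0.999 each) and Slc39a7 (r = 0.998). Such likeness was common, since 1796 of 13883 named rows of other genes had r above 0.95, and the 6 arrays share the same slides and treatment. This is a description over 6 points and carries no p.

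Pde4a (NM_013101), a rolipram-sensitive cAMP phosphodiesterase, had levels of 1.34, 1.57 and 1.34 with isoproterenol, against 1.74, 1.25 and 1.60 in controls. The groups overlapped, and the probe was well above background on all 6 arrays. The change of −0.11 ± 0.20 (95% interval −0.58 to 0.35, adjusted p = 0.705 by limma) was smaller than its error. Within slide 1 it was −0.19, and with normexp −0.12.

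Pde4d encodes a cAMP phosphodiesterase that in cardiomyocytes is found with beta-adrenergic receptors and the ryanodine receptor, and its many isoforms arise from separate start sites. RefSeq's promoter table (assembly GRCr8, 250 bases before to 50 after each start) held 5 windows for the gene. TGACG, the short form of the cAMP response element TGACGTCA to which CREB binds, was in 2 of them when both strands were searched. Those windows are shown because they hold the short site, and the windows of Pde4d without it are not shown. The Pde4d rows could not be assigned to a start. Short sites are in capitals, with CGTCA marking one on the opposite strand, and both sequences are of the plus strand.

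Pde4d window chr2:42592499-42592798: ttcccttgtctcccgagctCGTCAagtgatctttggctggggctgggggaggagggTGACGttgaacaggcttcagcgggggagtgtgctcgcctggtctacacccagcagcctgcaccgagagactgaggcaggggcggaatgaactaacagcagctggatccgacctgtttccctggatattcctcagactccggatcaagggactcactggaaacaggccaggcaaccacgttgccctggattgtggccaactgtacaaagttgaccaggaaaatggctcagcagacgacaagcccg

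Pde4d window chr2:42767367-42767666: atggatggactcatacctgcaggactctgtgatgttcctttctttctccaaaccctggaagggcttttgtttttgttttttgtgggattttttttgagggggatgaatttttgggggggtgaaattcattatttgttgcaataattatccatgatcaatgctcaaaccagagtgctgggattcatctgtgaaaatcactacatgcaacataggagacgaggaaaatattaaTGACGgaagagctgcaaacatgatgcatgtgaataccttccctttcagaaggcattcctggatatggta

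The first window held 2 short sites and had a GC content of 58.3%, and the second held 1 and had 40.3%. The full element TGACGTCA was in none of the 18 windows of 8 member genes and in 1.83% of 33469 windows of all genes. The short site, which every full element also contains, was in 6 of the 18 windows (33.3%) and in 21.2% of all windows. The 18 windows include 2 of Pde4b, and the table had none of Pde3b or Pde7a. These matches are letters in a window and were not tied to any change.

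None of the 5 Pde4d rows passed the test. Row NM_001113328 had levels of −2.07, −1.76 and −1.86 with isoproterenol, against −2.07, −2.26 and −2.25 in controls. Its groups did not overlap, although isoproterenol replicate 1 and control replicate 1 agreed to 2 decimals, and the change was 0.30 ± 0.17 (adjusted p = 0.243, limma). Row NM_017032 had levels of −4.50, −4.72 and −4.92 with isoproterenol, against −5.16, −5.05 and −5.19 in controls. These groups did not overlap either, but only isoproterenol replicate 1 was well above background in its group. The change of this row was 0.42 ± 0.18 (adjusted p = 0.14), 0.64 within slide 1 (adjusted p = 0.0799), and −0.12 after quantile normalization.

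Row NM_001113329 of Pde4d had levels of −0.66, −0.75 and −0.63 with isoproterenol, inside the control levels of −0.15, −0.43 and −1.02, and a change of −0.15 ± 0.25 (adjusted p = 0.688). Row NM_001113334 had −1.87, −2.76 and −2.65 with isoproterenol, against −1.96, −1.91 and −1.95 in controls. Its isoproterenol array on slide 1 lay just above the controls and the other two below them, and the change of −0.48 ± 0.26 (adjusted p = 0.221) was 0.07 within slide 1. Row NM_001113332 had −3.07, −3.26 and −2.89 with isoproterenol, against −3.20, −3.48 and −3.27 in controls. These groups overlapped, with a change of 0.24 ± 0.18 (adjusted p = 0.356).

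Whether transcripts of one gene moved apart was tested on the difference between each row and the gene's brightest row within each array. Over all genes 7 of 698 such differences passed (1%, limma), and 0 of the 6 for Pde4d and Pde2a did, also at an unadjusted p under 0.05. For Pde4d, set against NM_001113329, the differences in change ran from −0.34 for NM_001113334 (adjusted p = 0.516) to 0.57 for NM_017032 (adjusted p = 0.251). For Pde2a, set against NM_001270604, they were 0.38 for NM_001143847 (adjusted p = 0.223) and 0.41 for NM_031079 (adjusted p = 0.431). A miss at this number of arrays does not show that the transcripts acted alike.

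Pde8a (NM_198767), a cAMP phosphodiesterase of high affinity, had levels of −2.32, −3.29 and −3.03 with isoproterenol, against −2.41, −2.48 and −2.30 in controls. The isoproterenol array of slide 1 lay among the controls and the other two below them. The change was −0.48 ± 0.27 (95% interval −1.12 to 0.16, adjusted p = 0.237 by limma), and 0.08 within slide 1.

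Pde3a and Pde3b are the cGMP-inhibited enzymes, of which Pde3a acts with the calcium pump of the sarcoplasmic reticulum and Pde3b is known from insulin signalling in fat and from a complex with phosphoinositide 3-kinase gamma in the mouse heart. Pde3a (NM_017337) had levels of −2.80, −4.45 and −3.33 with isoproterenol, against −2.74, −2.62 and −2.38 in controls. Pde3b (NM_017229) had −3.94, −3.11 and −3.23 with isoproterenol, against −4.08, −4.06 and −3.95 in controls. The groups did not overlap for either gene, with isoproterenol below for Pde3a and above for Pde3b, yet in both isoproterenol replicate 1 lay close to the nearest control. Neither passed, with a change of −0.94 ± 0.41 (adjusted p = 0.147, limma) for Pde3a and 0.60 ± 0.25 (adjusted p = 0.135) for Pde3b. Within slide 1 the changes were −0.22 and 0.09, and with normexp that of Pde3a was 0.21. On slide 2 neither probe was well above background.

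Pde2a is the cGMP-stimulated enzyme, through which cGMP can lower cAMP in cardiomyocytes. Its row NM_001270604 had levels of −0.61, −1.74 and −1.59 with isoproterenol, against −0.35, −0.53 and −0.53 in controls. All 3 isoproterenol arrays lay below all controls, by little on slide 1 and by more on slide 2, and the probe was well above background on all 6 arrays. The change of −0.85 ± 0.31 had an adjusted p of 0.104 (limma) and was −0.14 within slide 1. Row NM_001143847 had −2.23, −3.38 and −2.97 with isoproterenol, against −2.29, −2.44 and −2.44 in controls. Row NM_031079 had −2.62, −4.50 and −4.15 with isoproterenol, against −3.74, −3.07 and −3.14 in controls. In both rows isoproterenol replicate 1 was the highest of the 6 arrays and replicates 2 and 3 the lowest. Their changes of −0.47 ± 0.30 (adjusted p = 0.293) and −0.44 ± 0.49 (adjusted p = 0.542) became 0.16 and 0.69 within slide 1.

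Pde5a (NM_133584), the cGMP-specific target of sildenafil, had levels of −0.61, −1.51 and −1.57 with isoproterenol, against −0.60, −0.80 and −0.80 in controls, with all arrays well above background. The slide 1 isoproterenol array lay among the controls. The change was −0.49 ± 0.28 (95% interval −1.17 to 0.18, adjusted p = 0.247 by limma), and 0.13 within slide 1.

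Pde10a (NM_022236) hydrolyses both cyclic nucleotides and is best known from striatal neurons. It had levels of −2.56, −5.03 and −4.91 with isoproterenol, against −2.53, −2.75 and −2.79 in controls. The 2 low arrays were those of slide 2, where the probe was not well above background, and isoproterenol replicate 1 lay among the controls. The change of −1.47 ± 0.63 was the largest in size among the 15 rows, yet its 95% interval ran from −2.98 to 0.03 and its adjusted p was 0.146 (limma). It was −2.22 after quantile normalization, 0.13 within slide 1 and 0.13 with normexp.

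**Figure D3:**
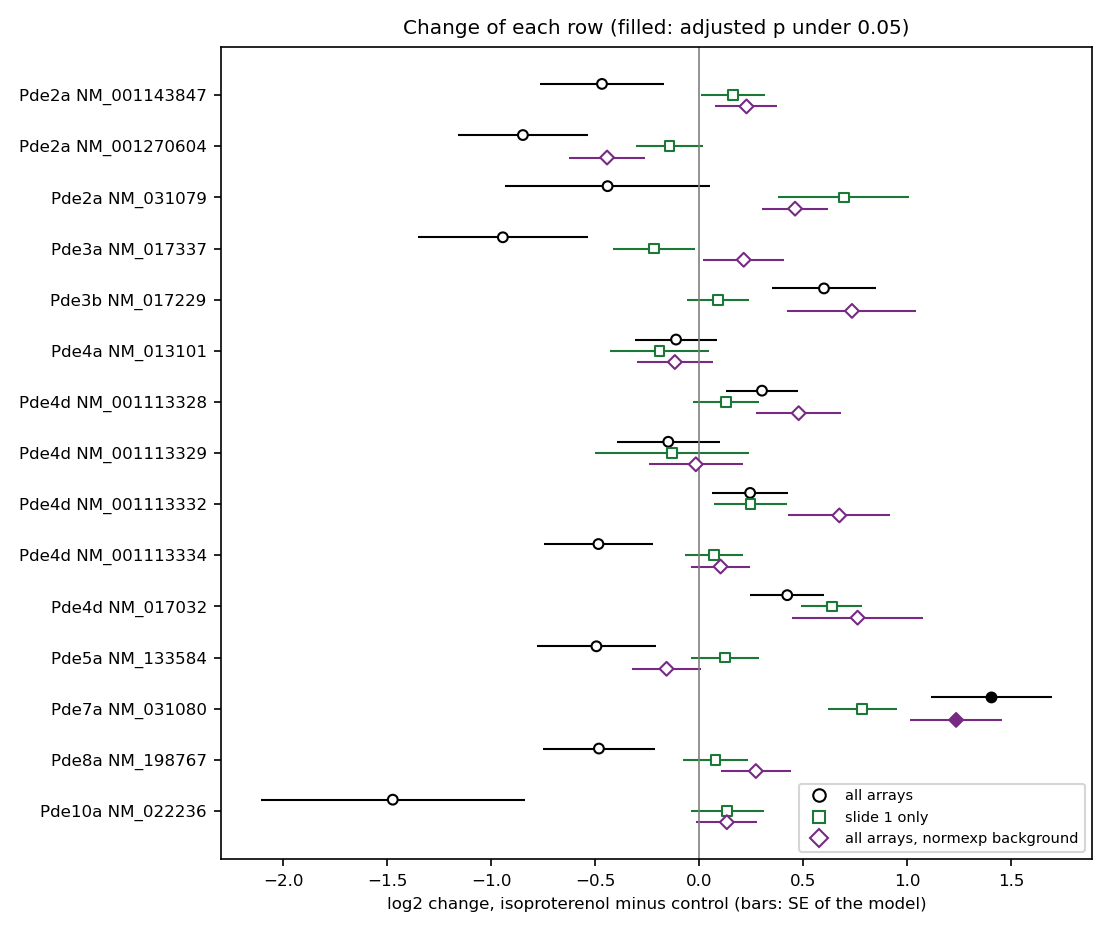
Change of each of the 15 rows (x axis, log2, isoproterenol minus control; bars are the model's SE) over all arrays, within slide 1, and over all arrays with normexp background correction, filled where the adjusted p was under 0.05. Only Pde7a has filled symbols, and the negative values of Pde2a NM_001143847, Pde2a NM_031079, Pde4d NM_001113334, Pde8a and Pde10a over all arrays stand beside positive ones under the other settings.

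In all, the groups did not overlap in 6 of the 15 rows, 4 with isoproterenol above and 2 below. Over all rows the share was 41.2%, 25.3% above and 15.9% below, so that the members' 6 of 15 was close to the background. All 15 probes were well above background on the 3 control arrays, where 97.7% to 99.6% of mRNA rows were so. With isoproterenol 6 of the 15 were so on 3 arrays, 4 on 2 arrays, and 5 on replicate 1 alone. Over all rows 12592 of 20646 were well above background on all 6 arrays, a larger share than the members' 6 of 15.

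Of 14 other phosphodiesterase genes looked up, 6 had a row, 1 each. Of these 0 passed higher, 1 passed lower and 5 did not pass, where 15.9% of all rows passed. Pde9a (NM_138543), a cGMP-specific enzyme of high affinity, had levels of −2.20, −2.70 and −2.50 with isoproterenol, against −1.42, −1.14 and −1.27 in controls. All 3 isoproterenol arrays lay below all 3 controls, and Pde9a fell by 1.19 ± 0.20 (adjusted p = 0.0128, limma). It was −0.92 within slide 1 (adjusted p = 0.0584), passed with slide as a block (adjusted p = 0.0483), and was −0.42 with normexp (adjusted p = 0.121). Pde7b (NM_080894), the paralogue of Pde7a, had levels of 0.59, 1.28 and 1.15 with isoproterenol, against 0.26, 0.31 and 0.34 in controls. All isoproterenol arrays were above all controls, but the change of 0.70 ± 0.22 missed the threshold (adjusted p = 0.0711). Pde6h, Pde1c, Pde6d and Pde11a had changes of 0.61, 0.18, −0.16 and −0.29 and did not pass. The median of the 6 rows was 0.01, against 0.06 over all rows.

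The enzymes that make cAMP and cGMP had 17 rows of 16 genes, with a median of 0.19. Of these 1 passed higher, 2 passed lower and 14 did not pass, against 9.96% higher and 5.94% lower over all rows. Adcy5, a main adenylyl cyclase of the heart, had levels of 1.63, 0.35 and 0.82 with isoproterenol, against 3.38, 3.64 and 3.50 in controls, and fell by 2.57 ± 0.33 (adjusted p = 0.00698, limma). Its value within slide 1 was −1.87 (adjusted p = 0.029). Adcy7, another adenylyl cyclase, rose by 1.37 ± 0.20 (adjusted p = 0.00893) and was 1.12 within slide 1 (adjusted p = 0.0347). Npr2, the guanylyl cyclase receptor of C-type natriuretic peptide, fell by 0.71 ± 0.19 (adjusted p = 0.0469) and was −0.92 within slide 1. It missed the threshold with normexp (adjusted p = 0.239) and with slide as a block (adjusted p = 0.0538, limma).

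The proteins that respond to cyclic nucleotides had 14 rows of 14 genes, with a median of −0.45. Of these 1 passed higher, 4 passed lower and 9 did not pass, against 9.96% higher and 5.94% lower over all rows. The cAMP-binding Popeye proteins Popdc3 and Bves had changes of −1.83 ± 0.30 (adjusted p = 0.0122) and −0.91 ± 0.15 (adjusted p = 0.0132, limma). Bves passed with slide as a block (adjusted p = 0.0344) and missed the threshold with normexp (adjusted p = 0.0758, limma). Popdc3 passed in both (adjusted p = 0.033 and 0.0107). Within slide 1 Bves was −0.89 and Popdc3 −1.20. The cyclic nucleotide-gated pacemaker channel Hcn2 fell by 1.78 ± 0.30 (adjusted p = 0.0136), with 1 isoproterenol array well above background. Its change was −2.11 within slide 1 and passed with slide as a block (adjusted p = 0.0418), but was −0.13 with normexp (adjusted p = 0.758, limma). Prkaca, a catalytic subunit of protein kinase A, fell by 1.15 ± 0.24 (adjusted p = 0.0245), and was −0.76 within slide 1 (adjusted p = 0.0631). The row that passed higher, named after its values were seen, was that of Prkar2a, a regulatory subunit of the same kinase, at 0.76 ± 0.16 (adjusted p = 0.0253), and 0.70 within slide 1 (adjusted p = 0.0749).

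Anchors and partners of phosphodiesterases had 25 rows of 22 genes, with a median of −0.04. Of these 1 passed higher, 5 passed lower and 19 did not pass, against 9.96% higher and 5.94% lower over all rows. Pde4dip, or myomegalin, which binds Pde4d, had levels of 1.40, 0.45 and 0.73 with isoproterenol, against 3.04, 2.77 and 2.97 in controls. All 3 isoproterenol arrays lay below all 3 controls. Pde4dip fell by 2.07 ± 0.27 (adjusted p = 0.00739, limma), and was −1.53 within slide 1 (adjusted p = 0.033). Myzap, a protein of the intercalated disc, fell by 2.94 ± 0.28 (adjusted p = 0.00328). It stood on this list, but a link of Myzap to a phosphodiesterase was not tested here. Akap1, which anchors protein kinase A at mitochondria, fell by 1.76 ± 0.17 (adjusted p = 0.00345). Row NM_001110823 of Atp2a2, the pump that returns calcium to the sarcoplasmic reticulum, fell by 1.06 ± 0.18 (adjusted p = 0.0131), and was −1.07 within slide 1. It passed with slide as a block (adjusted p = 0.0446) and with normexp (adjusted p = 0.00739, limma). The other row of Atp2a2 missed the threshold with slide as a block (adjusted p = 0.0551). The row that passed higher, named after its values were seen, was that of Akap5, another protein kinase A anchor, at 0.90 ± 0.23 (adjusted p = 0.0403), and 0.64 within slide 1 (adjusted p = 0.161).

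**Figure D4:**
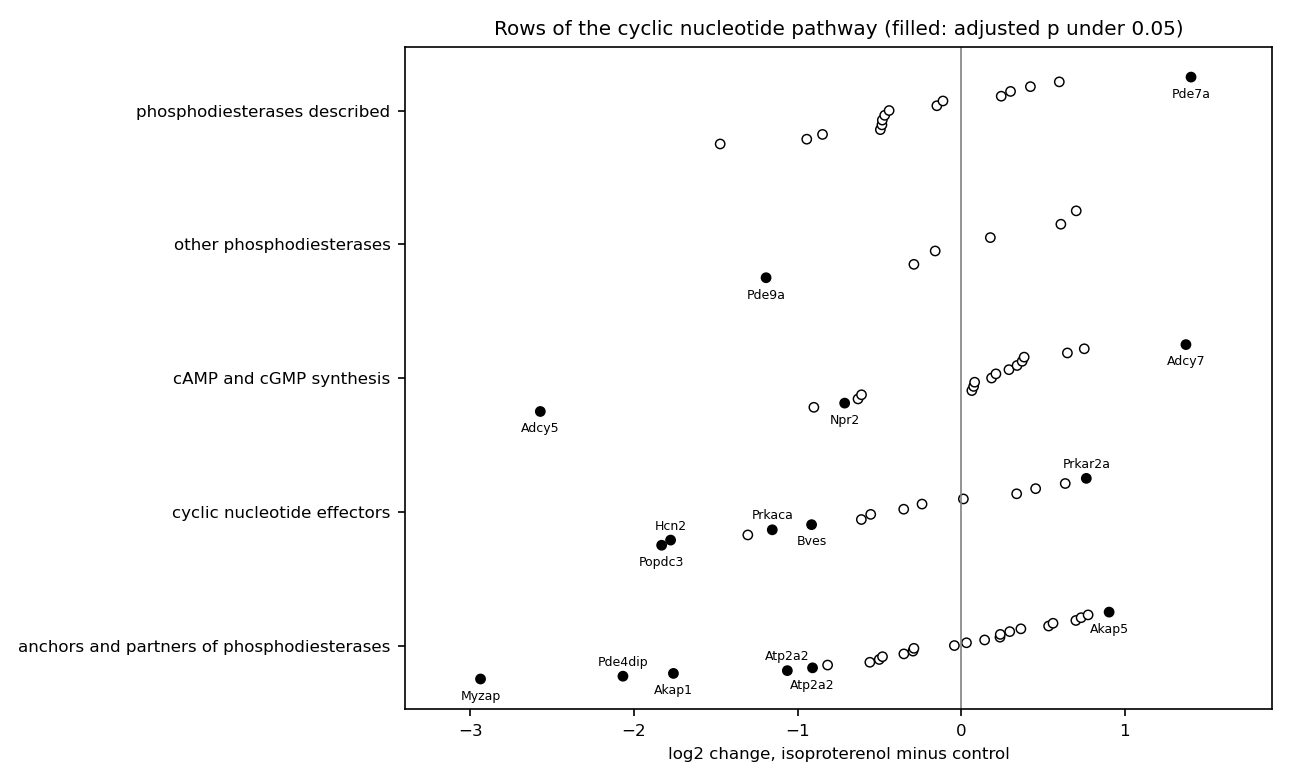
Change of each row (x axis, log2, isoproterenol minus control) of the 10 phosphodiesterase genes and of 4 further lists (rows of the plot), filled and named where the adjusted p was under 0.05; height within a list only spreads the points. Pde7a at 1.41 is the filled point of the top row, against Adcy5 at −2.57 and Myzap at −2.94 further down.

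In RNA of a whole culture, fewer cells of a type and less RNA per cell cannot be told apart. The marker counts below stand beside 9.96% higher and 5.94% lower over all rows, and 6.99% with slide as a block. Of 9 rows of cardiomyocyte markers Myh6 passed higher, and their summed level on the linear scale was 1867, 2940 and 2781 in isoproterenol replicates 1 to 3, against 1801, 1543 and 1795 in controls. The isoproterenol sum nearest the controls was that of slide 1. The median change of these rows was 0.34, but 0.09 within slide 1 and −0.20 with quantile normalization. With slide as a block Myh6 missed the threshold (adjusted p = 0.0703, limma) and the row that passed was that of Pln, lower at −1.24 (adjusted p = 0.0244). Of 4 smooth muscle rows Acta2 and Tagln passed higher and Smtn lower, with summed levels of 215, 496 and 439 in isoproterenol replicates 1 to 3, against 148, 82.8 and 95.3 in controls. None of these 3 passed with slide as a block (adjusted p = 0.308 for Acta2, 0.0643 for Tagln and 0.0714 for Smtn, limma). The median change of the 4 rows was 0.75, with 0.83 within slide 1 and 0.53 with quantile normalization.

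The isoproterenol arrays had the same order in both sums as in their Pde7a levels, with replicate 2 highest and replicate 1 lowest, whereas the control with the highest Pde7a level, replicate 2, had the lowest of both sums. These sums and the Pde7a levels share the scaling of each array. Its 75th percentile was 198 and 240 scanner units on slide 2, against 514 to 562 on slide 1. The part of these markers in the Pde7a result was not tested. Of 9 fibroblast rows 1 passed higher and 4 lower, and 2 passed with slide as a block, with sums of 133 to 178 with isoproterenol and 156 to 165 in controls. Of 6 endothelial rows Kdr passed lower, also with slide as a block (adjusted p = 0.0255, limma). Its probe was well above background on 1 isoproterenol array, and its change was −0.05 with normexp (adjusted p = 0.892, limma). The endothelial sums were 14.0 to 15.5 with isoproterenol and 14.9 to 16.7 in controls. Of 7 leukocyte rows Cd14 passed higher, but not with slide as a block (adjusted p = 0.11), with sums of 13.4 to 17.0 with isoproterenol and 9.93 to 17.0 in controls. No marker row was below background on every array.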

How the data were processed

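Per the file headers, Feature Extraction 11.0.1.1 (Agilent) produced the deposited scanner files. Their Cy3 intensity values, 43040 spots for each array with none saturated, already had the background subtracted, per the file headers. The authors also deposited mRNA values that lie close to quantile-normalized log2 intensities (median absolute difference at most 5.43e-07 on any array). The 95th percentile of that difference was at most 0.000613 on slide 1, and 0.469 and 0.245 for isoproterenol replicates 2 and 3, and the change of Pde10a was −1.94 from the deposited values against −2.22 from quantile-normalized intensities. The sources used here do not name the tool behind them. Their rows were matched to probes by these values over the 6 arrays (distance under 0.05 and under 0.25 of the next), for 20646 of 20734 rows. RefSeq's table (assembly GRCr8) named 13956 of 14757 NM accessions and none of 5977 Ensembl transcripts.

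Log2 of the processed signal minus each array's 75th percentile over non-control probes was compared by limma 3.58.1 in R 4.3.3, two-sided, 3 arrays per group, with Benjamini-Hochberg adjustment over all 20646 rows and a threshold of 0.05. All adjusted p-values are from limma. Rows had to be well above background on at least 3 arrays, which removed 0. The number of arrays limits the precision. Normexp (offset 50) used the median spot signal, since the files hold no mean. Slides were told apart only by the scan time in the file headers. All member rows are described. From other lists up to 4 rows past the threshold with the largest change are named, and for a member past the threshold the 3 rows most like it. Members and lists were chosen with earlier results of these data known. The fit was tested on simulated data.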

Additional observations from a re-analysis of the deposited data

How the results depend on the processing

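The precision was limited by 3 arrays per group. Well above background on all 6 arrays were 6 of the 15 member probes, against 12592 of all 20646 rows. Among single values under the alternatives 24 reversed, 7 (all Pde7a) lost the call and 10 gained one, all 10 without isoproterenol replicate 1. Leaving out the filter changed nothing because it removed no row, the replicate block cannot move a change, and another percentile cannot move a difference between rows of one gene. Except where the construction shows it, the cause was not tested.

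Over all rows 3283 passed as reported, 1444 with slide as a block, 1079 within slide 1 and 385 to 10681 when one replicate was left out. The 10681 came without isoproterenol replicate 1, when the groups lie on different slides. The share of calls that were higher was 62.6% as reported, 40.6% with the percentile over detected probes, 73.5% with normexp, 55.5% with quantile normalization, 49.9% with slide as a block and 47.5% within slide 1. Of the phosphodiesterase rows 1 passed as reported, 0 with slide as a block and 0 to 11 with one replicate left out. With slide as a block 2 of the 15 had an unadjusted p under 0.05, against 5340 of all 20646 rows (limma). Differences between rows of one gene passed in 7 cases as reported, 20 with normexp, 28 of 276 with probes detected on all arrays, and 0 to 266 with one replicate left out. They passed in 0 with quantile normalization, the deposited values, slide as a block and slide 1 only, where 145, 151, 91 and 116 had an unadjusted p under 0.05 (limma).

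Reversed changes were as follows. NM_017032 of Pde4d was −0.12 with quantile normalization and −0.12 with the deposited values, and NM_001113329 ranged from −0.39 to 0.0424 with one replicate left out, the highest without control replicate 1. With normexp Pde2a was 0.23 (NM_001143847) and 0.46 (NM_031079), Pde3a 0.21, Pde4d NM_001113334 0.10, Pde8a 0.27 and Pde10a 0.13, and the difference of NM_001113334 from NM_001113329 was 0.12. With slide as a block and within slide 1 alike, Pde2a was 0.16 (NM_001143847) and 0.69 (NM_031079), Pde4d NM_001113334 0.0728, Pde5a 0.13, Pde8a 0.0781 and Pde10a 0.13, and that difference was 0.20.

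Samples of equal replicate number had correlations of deviations of 0.006, 0.052 and −0.023, and those of unequal number −0.086 to 0.076. Since only the isoproterenol arrays were split over the slides, these values cannot decide whether the samples were paired. With the replicate block 1476 rows, Pde7a among them (adjusted p = 0.0457, limma), and 0 differences between rows passed (146 at an unadjusted p under 0.05).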
